A study of Mus musculus with 6 samples.

Results

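The mitochondrial ribosome makes the few proteins that are encoded in mitochondrial DNA, and these are core subunits of the oxidative phosphorylation complexes. Its ribosomal RNAs are transcribed inside the organelle, whereas all of its proteins are encoded in the nucleus, made in the cytosol and imported. Some of these proteins have a counterpart in bacterial ribosomes, and others were added in the mitochondrial lineage. The genes described here were all protein-coding genes of the deposited count table whose symbol begins with Mrpl or Mrps followed by a digit, plus Gadd45gip1, and they numbered 79 of 54532 genes. By the published nomenclature of the mammalian mitochondrial ribosome 52 encode proteins of the large subunit and 26 proteins of the small subunit. The remaining gene, Mrps36, keeps its ribosomal symbol although its product is a subunit of the oxoglutarate dehydrogenase complex. Of the ribosomal members, 46 have a bacterial counterpart and 32 are specific to mitochondria. Some symbols mislead, and Mrps18a and Mrps30 encode proteins of the large subunit.

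The samples were DC2.4 cells, an immature mouse dendritic cell line, and both groups received the pTT5 expression vector by transfection. A group of 3 samples carried the empty vector, and a group of 3 samples was labelled as overexpressing Vdbp, the vitamin D-binding protein encoded by Gc. Passage followed 48 h after transfection in both groups, and selection came next. The sources used here name neither the promoter that drives the transgene nor whether the selected cells were pools or single clones. The labels leave unsaid whether the 3 samples of a group were separate cultures. A p-value here therefore sets the difference between groups against the spread among samples within a group, which may be technical. The comparison asks which transcripts differed between cells labelled Vdbp and cells with the empty vector.

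Each library held 15563800 to 16710975 counts, and 12844 genes passed the filter on low counts. Gc had 0 counts in all 6 libraries, which allows up to 0.177 to 0.192 CPM (counts scaled to a common library size). The counts thus do not show the overexpression that the label Vdbp names. Whether reads of the transgene would be counted as Gc was not tested. Of 15 dendritic cell markers 6 were tested, among them Itgax, Cd74 and Cd86, and the other 9, which include Flt3, Irf4, H2-Aa and H2-Ab1, averaged at most 0.0631 FPKM, a level scaled to gene length and library size. All 6 markers of leukocytes and myeloid cells were tested, with Lyz2 at 1340 FPKM. Markers of T cells, B cells, fibroblasts and epithelial cells averaged at most 0.0763 FPKM. The libraries farthest apart on principal component 1 were replicate 2 of the empty vector (-26.7) and replicate 1 of Vdbp (30.5), with the other 4 between -7.98 and 5.94.

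Promoters of ribosomal protein genes of mitochondria are known for binding sites of NRF1, of ETS factors such as GABP, and of YY1, and the sequences below show how such motifs sit in members named in the results. RefSeq promoter windows on GRCm38.p6, from 250 bases before to 50 bases after the transcript start, were matched by symbol for 69 of the 79 members, in 75 windows. Capitals mark the motif, and each sequence is printed 5′ to 3′ in the direction of transcription. Mrpl12, at chr11:120484507-120484612 on the plus strand, and Mrpl45, at chr11:97315586-97315715 on the plus strand, show the NRF1 motif, which the stretch printed for Mrpl45 holds at 2 places. Mrpl43, at chr19:45006443-45006557 on the minus strand, and Mrps22, at chr9:98601680-98601809 on the minus strand, show the ETS motif. Mrps18a, at chr17:46111009-46111029 on the plus strand, and Mrps30, at chr13:118387223-118387243 on the minus strand, show the YY1 motif just after the start.
Mrpl12: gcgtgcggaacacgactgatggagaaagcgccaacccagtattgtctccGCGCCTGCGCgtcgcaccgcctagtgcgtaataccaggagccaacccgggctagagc
Mrpl45: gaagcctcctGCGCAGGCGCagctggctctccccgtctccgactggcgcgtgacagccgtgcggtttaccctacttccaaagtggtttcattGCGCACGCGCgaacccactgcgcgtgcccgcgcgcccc
Mrpl43: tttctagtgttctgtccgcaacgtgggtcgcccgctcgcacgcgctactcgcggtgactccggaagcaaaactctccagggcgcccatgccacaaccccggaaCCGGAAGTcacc
Mrps22: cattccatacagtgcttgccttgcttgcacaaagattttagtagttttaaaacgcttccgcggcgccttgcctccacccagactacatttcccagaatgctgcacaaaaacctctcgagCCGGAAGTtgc
Mrps18a: cgttccAAGATGGCGgccctc
Mrps30: cgggcgAAAATGGCGgcggcc

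All motifs were searched on both strands, and a match describes letters in a window, not a bound site. The NRF1 motif, of which the capitals of Mrpl12 and Mrpl45 above show some variants, was in 17.3% of member windows, against 4.6% of all 32851 windows and 10.4% of the windows of tested genes. CCGGAAGT (ETS) was in 16% of member windows, against 3.89% and 8.61%. AANATGGCG (YY1) was in 14.7%, against 2.38% and 5.21%. At least 1 of these 3 motifs was found in 33 of the 69 matched members, and Mrpl27, Mrps26 and Mrps27 held 2 kinds. By position, 13 of 16 NRF1 matches and 11 of 12 ETS matches lay before the start, whereas 9 of 11 YY1 matches lay after it. GGGCGG (SP1) was in 52.0% of member windows, against 35.7% of all windows and 61.7% of those of tested genes. The core promoter motif TATAAA was in 6.67%, against 13.6% and 7.11%. TGATGNAA, the element that ATF4 and CHOP recognise in stress-response genes, was in 0 of the 75 member windows, against 3.97% of all windows and 2.32% of those of tested genes. The NRF1 and SP1 motifs are themselves rich in G and C, and the median GC content of member windows was 58.7%, against 52.7% of all windows.

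Of the 79 members, 78 passed the filter on low counts and were tested. The median member averaged 20.6 FPKM over the 6 libraries, against 6.48 FPKM for all tested genes. Mrps21, the counterpart of a bacterial small-subunit protein, had the highest level at 85.7 FPKM and a range over libraries of 71.6 to 98.0. The large-subunit genes Mrpl34 (74.6 FPKM, range 62.1 to 89.6), Mrpl43 (74.5 FPKM, range 58.4 to 88.9), Mrpl12 (62.0 FPKM, range 40.9 to 81.0) and Mrpl28 (58.3 FPKM, range 46.7 to 70.7) followed. The ranges of neighbours in this order overlapped, so the order of neighbours is not resolved by 6 libraries. Mrpl47 (2.97 FPKM, range 2.65 to 3.90), Mrpl33 (3.85 FPKM, range 3.23 to 4.51) and Mrpl48 (3.95 FPKM, range 3.60 to 4.15), all of the large subunit, had the lowest levels, and their ranges overlapped. FPKM divides by the full gene length in the table, which is 7326 bases for Mrpl33 and 8152 bases for Mrpl48 but 739 bases for Mrps21.

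**Figure D1:**
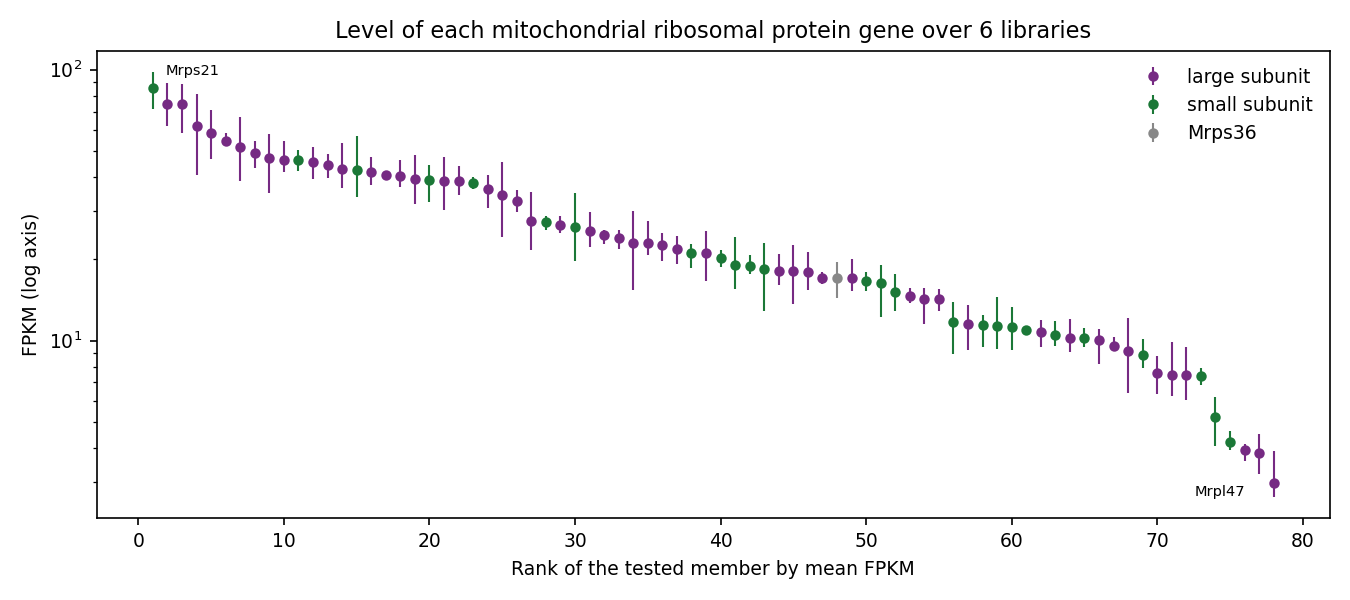
Mean FPKM of each tested member over the 6 libraries on a log axis, ordered by rank, with lines from the lowest to the highest library. Mrps21 leads at 85.7 FPKM and Mrpl47 is last at 2.97 FPKM, and the lines of neighbours among the 5 highest members overlap, as do those of the 3 lowest.

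Mrpl53, a large-subunit gene on chromosome 6 (83109040 to 83109939, plus strand), had 0 counts in every library. In GENCODE M21 88.0% of its exon bases also belong to exons of Gm42688 on the same strand, and Gm42688 had 11, 10 and 7 counts in the empty-vector libraries and 10, 10 and 1 in the Vdbp libraries. Whether reads of Mrpl53 were set aside in the counting was not tested. Exons of 34 members overlap exons of another gene, 21 of them a protein-coding gene on the opposite strand, and the sources used here do not say whether counting used strand. If counting ignored strand, reads of a member and of an opposite-strand gene cannot be told apart where their exons overlap. Mrps25 shares 69.8% of its exon bases with Nr2c2 and Mrps34 shares 63.4% with Mapk8ip3, each on the opposite strand. Mrpl46 and Mrps11 lie head to head and share 173 bases. Counts on the pseudogenes Mrpl48-ps, Mrpl23-ps1, Mrps36-ps1, Mrps36-ps2 and Mrps36-ps3 summed to only 20 to 35 per library.

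None of the 78 tested members differed between the groups at an adjusted p under 0.05 in edgeR's quasi-likelihood test. The smallest adjusted p was 0.781, the share called among all tested genes was 0% in either direction, and DESeq2 called 0 members as well (0.0156% of tested genes higher and 0.0701% lower). The median log2 fold change of the members, Vdbp against empty vector, was 0.07 (quartiles -0.03 and 0.18, range -0.23 to 0.51), beside -0.01 for all tested genes. It was above 0 in 51 of 78 members (65.4%), against 48.7% of all tested genes. At an unadjusted p under 0.05 in edgeR, 7 members (8.97%) were higher in Vdbp and 0 lower, where the shares among all tested genes were 2.81% and 2.54%. In 6 members every Vdbp library lay above every empty-vector library and in 1 below (7.69% and 1.28%), where all tested genes gave 5.26% and 5.61%. For 66 of 78 members the whole 95% interval was inside a 1.5-fold difference, beside 70.7% of all tested genes. The median SE was 0.117 in the members and 0.135 in all tested genes. For all 78 tested members the interval was inside a 2-fold difference. Some cell type markers also separated the groups. Of the 6 markers of leukocytes and myeloid cells, 3 were lower in Vdbp without overlap: the lysozyme gene Lyz2 (log2 fold change -0.31, SE 0.10), Adgre1 (-0.20, SE 0.09) and Itgam (-0.20, SE 0.10). Ptprc was below 0 with overlap (-0.18, SE 0.13), whereas Spi1 (0.21, SE 0.11) and Csf1r (0.08, SE 0.11) were above 0. The summed level of all 6 was 3498 to 3930 CPM in the empty-vector libraries and 3315 to 3360 CPM in the Vdbp libraries. Lyz2 was the largest part of these sums, with means of 1964 and 1583 CPM. The 6 tested dendritic cell markers summed to 363 to 392 CPM and 394 to 419 CPM, and Cd74 was higher without overlap (0.27, SE 0.10). Cd74 was the largest part here, with means of 168 and 203 CPM. Of these 6 markers 3 were above 0, whereas Irf8 (-0.13, SE 0.11), Cd80 (-0.14, SE 0.17) and Cd86 (-0.09, SE 0.13) were below it. None of these markers passed the adjusted threshold in edgeR, and their part in the values of the ribosomal genes was not tested. In these bulk libraries, a difference in a subset of cells and a difference in RNA per cell cannot be told apart.

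**Figure D2:**
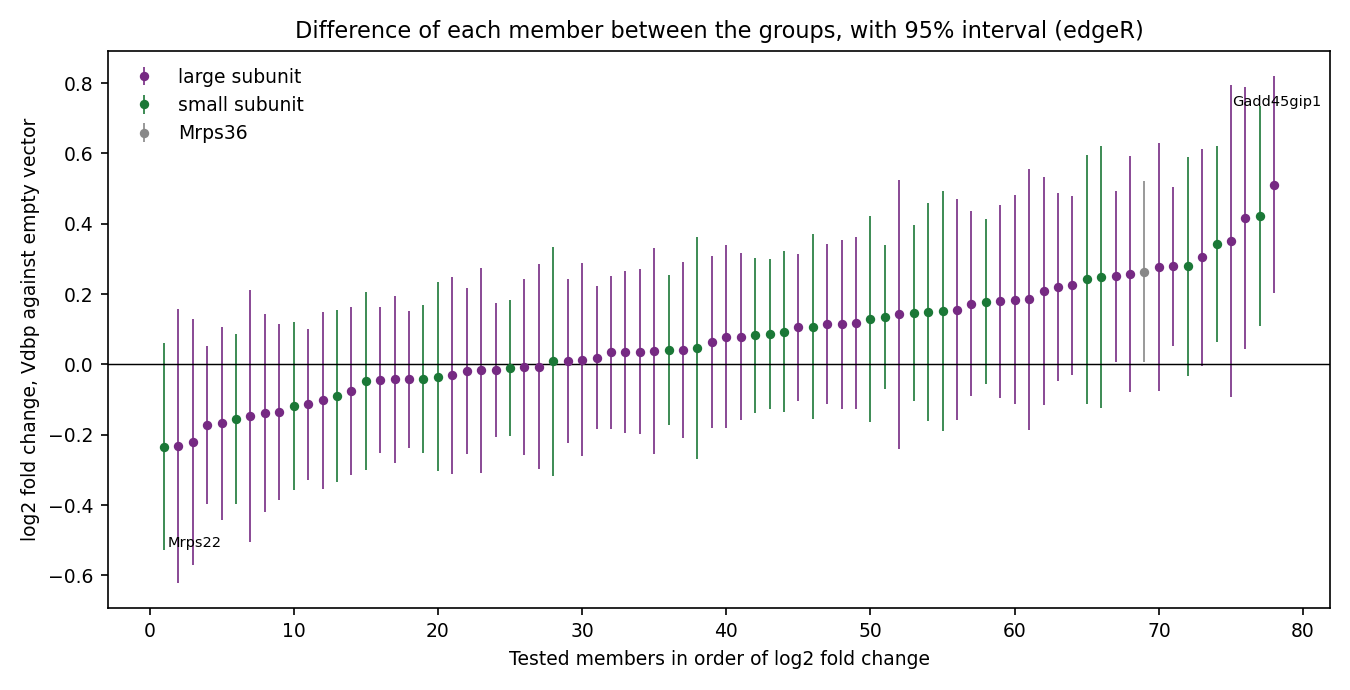
Log2 fold change of each tested member, Vdbp against empty vector, with its 95% interval from edgeR, in order of size and coloured by subunit. The values run from -0.23 (Mrps22) to 0.51 (Gadd45gip1), and none passed the adjusted threshold.

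Gadd45gip1, also known as CRIF1, encodes a large-subunit protein at the exit of the peptide tunnel and is known to be needed for insertion of new oxidative phosphorylation subunits into the inner membrane. The gene (ENSMUSG00000033751) lies on chromosome 8 from 84831522 to 84835482 on the plus strand, in the coordinates of the deposited table. Its levels were 46.5, 38.9 and 57.2 CPM in the empty-vector libraries and 75.6, 66.3 and 61.3 CPM in the Vdbp libraries, with replicates in numerical order here and throughout. The groups did not overlap, and the means were 47.5 ± 9.20 and 67.7 ± 7.22 CPM (SD, n = 3 each). The log2 fold change was 0.51 (SE 0.14, 95% interval 0.20 to 0.82), with an adjusted p of 0.781 in edgeR and 0.286 in DESeq2. Without a filter on low counts, edgeR gave Gadd45gip1 an adjusted p of 0.0156, the only member called in that fit, in which 0.174% of 24135 genes were called higher.

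Mrpl12, a large-subunit protein of the ribosomal stalk that is also known to bind the mitochondrial RNA polymerase, had the widest range of any tested member, 0.98 on the log2 CPM scale. Its levels were 78.5, 63.4 and 104 CPM in the empty-vector libraries and 125, 114 and 88.0 CPM in the Vdbp libraries. The groups overlapped, since empty-vector replicate 3 lay above Vdbp replicate 3, and the log2 fold change was 0.42 (SE 0.17, 95% interval 0.04 to 0.79). Mrpl43, specific to mitochondria, had 88.6, 71.7 and 88.4 CPM against 109, 93.6 and 93.7 CPM (log2 fold change 0.25, SE 0.11). Mrpl55, of the large subunit, had 35.5, 36.3 and 37.0 CPM against 45.7, 44.8 and 41.5 CPM (log2 fold change 0.28, SE 0.10). In both genes all Vdbp libraries were above all empty-vector libraries. Mrpl51, specific to mitochondria, had 62.7, 56.0 and 78.3 CPM against 84.0, 91.3 and 67.8 CPM (log2 fold change 0.30, SE 0.14), and its groups overlapped.

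In the small subunit, Mrps12 encodes the counterpart of the bacterial protein of the decoding centre at which streptomycin resistance arises. It had 23.5, 20.8 and 26.0 CPM in the empty-vector libraries and 36.7, 31.3 and 26.2 CPM in the Vdbp libraries (log2 fold change 0.42, SE 0.14). Vdbp replicate 3 lay only just above empty-vector replicate 3. Mrps25, specific to mitochondria, had 26.9, 29.2 and 35.08 CPM against 39.8, 40.8 and 35.07 CPM (log2 fold change 0.34, SE 0.13). Its groups met in replicate 3, where the values were nearly equal. Mrps17 and Mrps31 are named because they were the remaining ribosomal members without overlap between groups, a choice made after their values were seen. Mrps17 had 65.7, 62.7 and 61.5 CPM against 73.0, 67.4 and 68.1 CPM, and Mrps31 had 25.1, 26.4 and 24.8 CPM against 22.7, 24.5 and 23.2 CPM. Mrps36, the dehydrogenase subunit, had 18.3, 19.5 and 21.6 CPM against 23.4, 25 and 23.0 CPM (log2 fold change 0.26, SE 0.12), also without overlap.

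Of the 6 members with the smallest p among those lower in Vdbp, none had an unadjusted p under 0.05 and all had overlapping groups. Mrps22, specific to the mitochondrial small subunit, had 51.8, 56.3 and 44.5 CPM in the empty-vector libraries and 36.0, 48.3 and 45.4 CPM in the Vdbp libraries (log2 fold change -0.23, SE 0.14). Mrpl45, which anchors the ribosome to the inner membrane, had 142, 132 and 112 CPM against 117, 109 and 117 CPM (log2 fold change -0.17, SE 0.10). Mrpl1, of the stalk by which spent tRNA leaves, had 40.7, 52.7 and 35.0 CPM against 27.8, 38.7 and 42.9 CPM (log2 fold change -0.23, SE 0.18). In Mrps22 and Mrpl1 the highest value was in empty-vector replicate 2 and the lowest in Vdbp replicate 1. Gadd45gip1, Mrpl12, Mrps12 and Mrpl43 showed the mirror image. Mrps30 (-0.22, SE 0.16), Mrpl35 (-0.17, SE 0.13) and Mrps9 (-0.15, SE 0.11) had the other log2 fold changes of this kind. With both outermost libraries of principal component 1 left out, Mrpl1 and Mrpl35 changed sign, to 0.10 and 0.02.

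**Figure D3:**
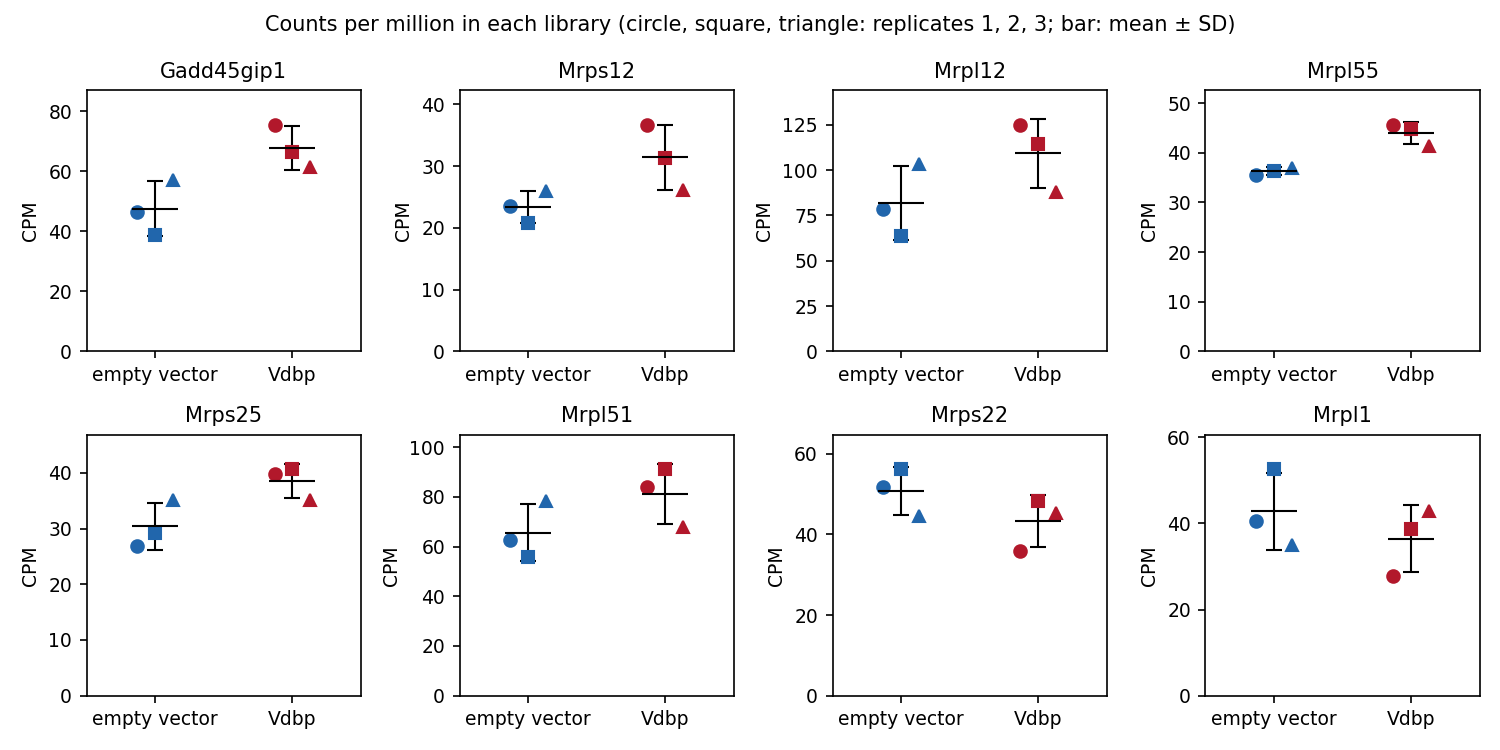
CPM of 8 members in each library, with replicates 1, 2 and 3 as circle, square and triangle and the mean ± SD of each group as bars. Gadd45gip1, Mrps12 and Mrpl55 show no overlap between groups, and Mrpl1 runs from 52.7 CPM in empty-vector replicate 2 to 27.8 CPM in Vdbp replicate 1.

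The medians of both subunits lay close together. The 26 small-subunit members had a median log2 fold change of 0.09 (18 above 0) and the 51 tested large-subunit members 0.04 (32 above 0). The summed FPKM of the large-subunit members was 2.60 to 2.66 times that of the small-subunit members in every library. These sums hold 52 and 26 genes chosen by symbol. They leave out the ribosomal proteins with other symbols, Dap3 (26.3 FPKM), Aurkaip1 (69.8 FPKM), Chchd1 (52.2 FPKM) and Ptcd3 (12.0 FPKM). The ratio is therefore not that of the whole subunits. Members with a bacterial counterpart had a median of 0.07 (32 of 46 above 0) and those specific to mitochondria 0.04 (18 of 31 tested above 0). The 45 members without exon overlap had a median of 0.08 (30 above 0), close to that of all 78. Mammals have 3 relatives of bacterial protein S18, and their log2 fold changes were 0.04 (SE 0.11) for Mrps18a, -0.04 (SE 0.12) for Mrps18b and 0.01 (SE 0.15) for Mrps18c. The sign of each of these values changed when single libraries were left out, and that of Mrps18a also with the correction described next (-0.06).

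The summed level of the set varied among libraries within each group. Members together took 0.433%, 0.413% and 0.442% of counts in the empty-vector libraries and 0.462%, 0.464% and 0.427% in the Vdbp libraries. The means were 0.429 ± 0.0149% and 0.451 ± 0.0207% (SD, n = 3 each), and the groups overlapped, since Vdbp replicate 3 lay below empty-vector replicates 1 and 3. Of the 78 tested members, 33 had their highest level in Vdbp replicate 1 and 32 had their lowest in empty-vector replicate 2, whereas 1 member had its highest in empty-vector replicate 3 and 1 in Vdbp replicate 3. Relative to each member's own mean over the 6 libraries, the median member stood at -0.02, -0.10 and -0.00 log2 units in the empty-vector libraries and at 0.09, 0.06 and -0.04 in the Vdbp libraries.

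The deviations moved with the GC content of the members. In the GC-richer 39 members the medians were -0.02, -0.18 and 0.00 in the empty-vector libraries and 0.19, 0.06 and -0.06 in the Vdbp libraries. In the GC-poorer 39 members they were 0.01, -0.02 and -0.00, and then -0.02, 0.07 and -0.02. The GC-richer members had a median log2 fold change between groups of 0.13 (31 of 39 above 0) and the GC-poorer members 0.01 (20 of 39 above 0). Across the 78 members, the rank correlation of the log2 fold change with GC content was 0.54, and across all tested genes with a GC value it was 0.51. These are descriptions across genes that share the same 6 libraries. Over all tested genes the correlation of a library's deviation with GC content was -0.62 in empty-vector replicate 2 and 0.73 in Vdbp replicate 1.

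**Figure D4:**
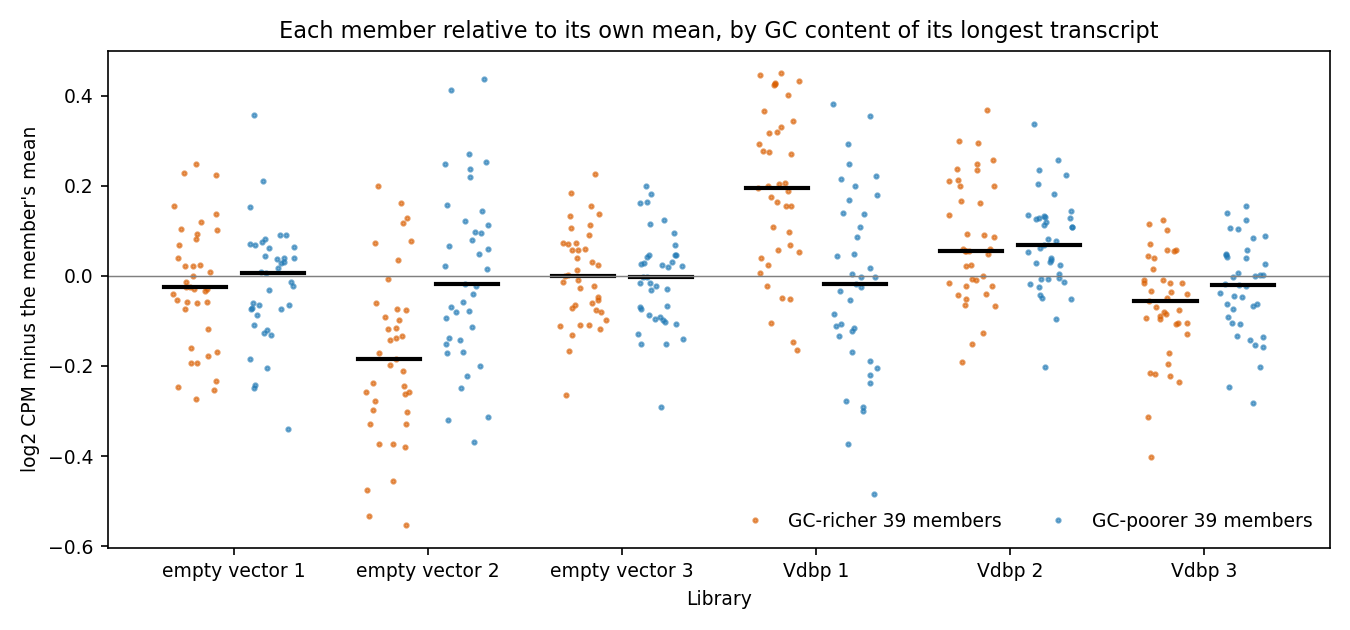
Log2 CPM of each member minus its own mean over 6 libraries, by library, with the GC-richer and GC-poorer 39 members apart and bars at the medians. The median of the GC-richer members is lowest in empty-vector replicate 2 (-0.18) and highest in Vdbp replicate 1 (0.19). The medians of the GC-poorer members stay within -0.02 to 0.07, while single members spread more widely.

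Each library's dependence on transcript length and GC content was then fitted as a smooth curve and removed through an offset. The correlation of the log2 fold change with GC content was -0.03 across the members after this correction, which removes such a dependence by design. A difference between the groups that followed GC content would be removed with it. The median log2 fold change was 0.05 (52 of 78 above 0), and 0 members were called at an adjusted p under 0.05 in edgeR, where 0% of tested genes were called higher and 0.0156% lower. At an unadjusted p under 0.05 in edgeR, 10 members were higher and 1, Mrpl45, was lower, beside 4.49% and 4.41% of all tested genes. The 8 members named above as higher kept log2 fold changes of 0.21 to 0.43, with 0.41 for Gadd45gip1, 0.43 for Mrps25 and 0.38 for Mrpl51. Mrps9 was at -0.00, Mrps30 at -0.08 and Mrpl35 at -0.07, whereas Mrps22 stayed at -0.21 and Mrpl45 at -0.18.

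**Figure D5:**
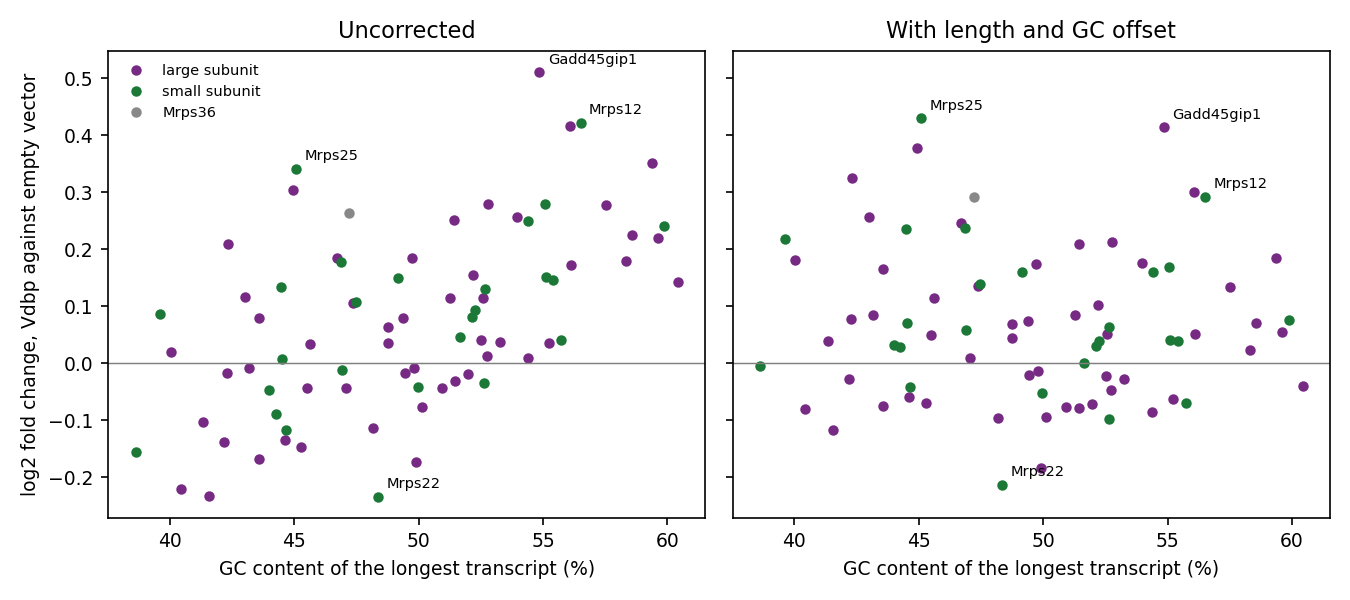
Log2 fold change of each tested member, Vdbp against empty vector, by GC content of its longest transcript in percent, uncorrected on the left and with the length and GC offset on the right. The rank correlation is 0.54 on the left and -0.03 on the right, where the offset removes it by design. Gadd45gip1 has 0.51 and 0.41.

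How many members came near the threshold depended on single libraries. Without empty-vector replicate 3, 16 members were higher at an unadjusted p under 0.05 in edgeR, where 5.43% of tested genes were. The same fit had 2 members lower, and the share of tested genes lower is not given here. Without Vdbp replicate 3 the number higher was also 16 (6.21% of tested genes), and without empty-vector replicate 2 it was 2 (0.848%). Neither of these fits had a member lower at that threshold. With the offset and without empty-vector replicate 3, edgeR called 3 members at an adjusted p under 0.05, all higher: Gadd45gip1 (log2 fold change 0.54, adjusted p 0.00513), Mrps25 (0.58, 0.0252) and Mrpl12 (0.46, 0.0267). In that fit 0.612% of tested genes were called higher. With both outermost libraries left out the median member stood at 0.02 and 46 of 78 were above 0.

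Among the other genes of the mitochondrial translation system listed here, edgeR called none at an adjusted p under 0.05. Of the ribosomal proteins with other symbols, Dap3, a small-subunit protein that binds GTP, had a log2 fold change of 0.04 (SE 0.09), Ptcd3 -0.02 (SE 0.12), Chchd1 -0.01 (SE 0.13) and Aurkaip1 0.14 (SE 0.11). All 26 genes listed under ribosome assembly and rRNA modification were tested. Their median was 0.07 with 20 above 0 before the correction, and 0.01 with 13 above 0 after it. In this list Mpv17l2 was at 0.29 (SE 0.16) and Tfb1m, an rRNA methyltransferase, at -0.35 (SE 0.16). Lars2, in this list although it encodes the mitochondrial leucyl-tRNA synthetase, had 5664 counts in empty-vector replicate 1 and 2370 to 3574 in the other 5 libraries. Its log2 fold change of -0.25 (SE 0.29) changed sign, to 0.30, without that library.

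Of 15 translation factor genes 13 were tested, with a median of -0.02 and 4 above 0. Gfm1, elongation factor G, was at -0.00 (SE 0.09), Tufm, elongation factor Tu, at 0.14 (SE 0.11) and Mtif2, an initiation factor, at -0.20 (SE 0.14). The 14 tested genes of mitochondrial transcription and RNA maintenance had a median of -0.04 with 4 above 0. Polrmt, the mitochondrial RNA polymerase, was at 0.15 (SE 0.13), Lrpprc, which stabilises mitochondrial mRNA, at -0.08 (SE 0.10) and Mterf1a at -0.39 (SE 0.18). Of the mitochondrial rRNAs and mRNAs 14 of 15 were tested, with a median of -0.09 before the correction and 0.03 after it. For the ribosomal RNAs of the organelle, mt-Rnr1 was at -0.17 (95% interval -0.50 to 0.15) and mt-Rnr2 at -0.25 (95% interval -0.63 to 0.13). These counts come from mRNA libraries, so they are not a measure of ribosome number. mt-Co1 was at -0.25 (SE 0.16) and mt-Atp6 at 0.62 (SE 0.25), and mt-Atp6 had 199, 269 and 239 counts against 206, 509 and 350. The groups of mt-Atp6 overlapped. Its adjusted p in edgeR was 0.781, or 0.0123 without a filter on low counts, and its log2 fold change was 0.31 without Vdbp replicate 2.

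Cytosolic ribosomal proteins and oxidative phosphorylation subunits had medians of the same sign. Of 81 tested cytosolic ribosomal protein genes 51 were above 0 (median 0.10), and of 79 tested oxidative phosphorylation genes 60 were (median 0.14). No difference between these lists and the mitochondrial ribosome was tested, so the values stand as a description.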

How the data were processed

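The members, lists and tests were chosen with earlier results of these data known. The authors deposited raw counts for each Ensembl gene and an FPKM table for the same genes, with gene lengths in bases. Each FPKM value equalled the count over gene length and a constant of the library (largest relative gap 1.3e-13). Per the submitters' processing notes HISAT2 and StringTie were used. The counting tool, build and annotation are not given in these sources. Identifiers were found in GENCODE M21 (GRCm38) for 99.8% of genes, and exon overlaps and the GC content of the longest transcript come from it.

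The main test, in R 4.3.3, was edgeR 4.0.16: filterByExpr (minimum count 10, total 15, proportion 0.7), TMM scaling, the quasi-likelihood F test, and two-sided p-values with Benjamini-Hochberg adjustment over 12844 genes. CPM uses TMM-adjusted library sizes. Zero counts were taken to allow 3 counts, for counting error only. The offset was fitted with mgcv 1.9.3. Alternatives were other scalings and filters, DESeq2 1.42.0, limma-voom, limma 3.58.1 on log2(FPKM + 1) and log2(FPKM + 0.1), a replicate block and leaving out libraries. The offset with 1 library left out, and leaving out both end libraries, were chosen after seeing the data. The scripts were tested on simulated data. Named members are the 8 higher and 6 lower with the smallest p, the 5 highest and 3 lowest levels, the untested member, the widest range, the Mrps18 paralogs and Gadd45gip1. In other lists they are the highest level and the smallest p each way, and every subunit with another symbol.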

Additional observations from a re-analysis of the deposited data

How the results depend on the processing

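The median log2 fold change of the mitochondrial ribosomal protein genes was above 0 in all 27 fits. Leaving out 1 library gave 0.046 to 0.096, or 0.021 to 0.081 with the length and GC offset, and leaving out both end libraries gave 0.019. All of these fits drew on the same 6 libraries, so their shared sign is a description and not independent support. Within groups, the median deviation of the members had a pooled SD of 0.0596 log2 units between libraries. The count of members called was 0 except without a filter (1), with the offset and without empty-vector replicate 3 (3) and at an unadjusted p under 0.05 (7). Over all genes the count called was 0 with edgeR, 11 with DESeq2, 89 without a filter, 2 with the offset, 2 without both end libraries and 687 at an unadjusted p under 0.05. Leaving out 1 library gave 0 to 22, or 0 to 149 with the offset. The small-subunit median was 0.015 without both end libraries, and 0.024 to 0.129 when 1 library was left out, with or without the offset. The translation factor median ran from -0.081 to 0.021 when 1 library was left out.

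Of 808 values of single named genes under alternatives, 47 had the other sign, in 19 genes. Without both end libraries these were Aurkaip1 -0.024, Chchd1 0.0092, Dap3 -0.011, Gfm1 0.00799, Lrpprc 0.046, Mrpl1 0.10, Mrpl35 0.018, Mrpl47 0.079, Mrps18a -0.12, Mrps21 -0.025, Mtif2 0.042, Polrmt -0.056, Ptcd3 0.16, Tufm -0.048 and mt-Co1 0.052. With the offset they were Chchd1 0.00104, Gfm1 0.051, Mrpl48 0.0501, Mrps18a -0.062, Polrmt -0.017 and Ptcd3 0.10. Gfm1 was 0.0041 with upper-quartile scaling and 6.8e-05 without a filter. Leaving out 1 library gave ranges that crossed 0 for Chchd1 -0.11 to 0.091, Gfm1 -0.028 to 0.021, Lars2 -0.48 to 0.30, Lrpprc -0.13 to 0.0036, Mrpl47 -0.25 to 0.052, Mrpl48 -0.089 to 0.012, Mrps18a -0.042 to 0.087, Mrps18b -0.12 to 0.049, Mrps18c -0.11 to 0.12 and Ptcd3 -0.11 to 0.1. The cause was not tested.

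The deviations of same-numbered libraries had correlations of 0.144, 0.0341 and -0.265. Deviations of single libraries also correlated with GC content (-0.62 in empty-vector replicate 2 and 0.73 in Vdbp replicate 1). The correlations between libraries therefore cannot decide whether same-numbered samples were paired, and the labels do not say. With the replicate block 0 members were called, 6 were higher at an unadjusted p under 0.05 and the median was 0.068, and with the replicate block and the offset 10 were and the median was 0.05. With the block and the offset the values of the other sign were Chchd1 0.00080, Gfm1 0.049, Mrpl48 0.046, Mrps18a -0.0604, Polrmt -0.016 and Ptcd3 0.10. The 95% interval was inside a 1.5-fold difference for 66 of 78 members, and for the others these 6 libraries do not exclude a difference of that size.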
